A study of Homo sapiens with 4 samples.

Results

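The BCL2 family sets whether the mitochondrial outer membrane of a cell stays intact or is opened during apoptosis. The 10 genes followed here were taken as a named list and found by their symbols in the deposited tables, and all 10 were present among 57768 gene entries. They were kept as 5 survival members (BCL2, BCL2L1, BCL2L2, MCL1 and BCL2A1) and 5 death members, of which BAX and BAK1 are the effectors and BID, BIK and BCL2L11 carry only the BH3 domain. RNA-seq had been performed on cells labelled HepG2, a cell line established from a human liver tumour, with 2 libraries from WT cells and 2 from C/EBPβ enh-/- cells. In the latter, CRISPR/Cas9 had removed both copies of an enhancer of CEBPB, the gene of the transcription factor C/EBPβ, and both genotypes were grown in serum-containing medium with no other agent named. The labels do not say whether the 2 libraries of a genotype came from separate cultures or clones, so the p-values measure only the spread between these libraries. The comparison asks which members of the family differ in mRNA level once the enhancer is lost.

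Survival members bind the BH3 domain of death members and hold them in check. BAX and BAK1 form the pores through which cytochrome c leaves the mitochondrion, and BH3-only proteins relay stress signals, either by engaging the effectors or by occupying the survival members. Hepatocytes are known for their reliance on BCL2L1 (BCL-XL) and MCL1, and for using BID, once cleaved by caspase-8, to pass the death receptor signal to mitochondria.

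The values are FPKM, fragments per kilobase of transcript and per 1000000 mapped fragments, so that levels of different genes can be set side by side within a library. The total FPKM per library ranged from 484072.7 to 614111.2, and the 5 highest genes took 18.8% to 22.3% of it in WT and 27.4% to 35.1% in C/EBPβ enh-/- libraries. The spacing of low values corresponded to about 43300000 and 48600000 fragments in WT libraries 1 and 2, and to about 24000000 and 53100000 in C/EBPβ enh-/- libraries 1 and 2, with 55.1% to 56.8% of low values within 0.1 of a whole fragment, so these depths are approximate. CEBPB had 30.6 and 19.2 FPKM in WT libraries and 12.4 and 11.8 in C/EBPβ enh-/- libraries (log2 fold change -0.94, adjusted p = 0.125, limma), with no overlap, and the fold change was -0.62 without WT library 1. Defining markers of the labelled liver origin were absent or nearly so, since all 20 hepatocyte markers examined, ALB, APOA1, AFP and HNF4A among them, stayed below an FPKM of 1 in all 4 libraries, with a highest value of 0.428. The labelled identity of the cells is therefore in doubt, and it was not tested further. The summed hepatocyte marker level was 0.915 to 1.23 FPKM in WT and 0.885 to 1.11 in C/EBPβ enh-/- libraries. Of 5 epithelial markers, only KRT8 and KRT18 were abundant, and they made up nearly all of the list's sum. That sum was 648 to 798 FPKM in WT against 238 in both C/EBPβ enh-/- libraries. KRT19 had 0.907 and 1.81 FPKM in WT and 0 in both C/EBPβ enh-/- libraries. EPCAM and CDH1 were nearly absent, at 0.00811 FPKM or less in all 4 libraries. Of 8 fibroblast markers, 4 were below 1 in all libraries, and the sum was 50.2 to 54.4 FPKM in WT and 57.5 to 73.4 in C/EBPβ enh-/- libraries. Within that list COL3A1 was higher in C/EBPβ enh-/- libraries (45.8 and 55.7 FPKM, against 33.3 and 31.9), whereas PDGFRB (1.52 and 2.27, against 4.15 and 5.59) and DCN (0.11 and 0.392, against 1.33 and 1.24) were lower. The 6 leukocyte and the 4 matched endothelial markers were all below 1. The part of these marker differences in the results on the family was not tested.

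BID and BCL2L1 stood lowest among the death and the survival members in C/EBPβ enh-/- relative to WT cells. The 250 bases before the annotated start of each are shown because these are the members on which the results turn. Both windows are from RefSeq (GRCh38.p14) and matched GRCh37, the build of the files, exactly once, as chr22:18257236-18257485 for BID and chr20:30310672-30310921 for BCL2L1, both on the minus strand and ending at the base before the start of the canonical transcript. Capitals mark the GC box GGGCGG on either strand.
BID: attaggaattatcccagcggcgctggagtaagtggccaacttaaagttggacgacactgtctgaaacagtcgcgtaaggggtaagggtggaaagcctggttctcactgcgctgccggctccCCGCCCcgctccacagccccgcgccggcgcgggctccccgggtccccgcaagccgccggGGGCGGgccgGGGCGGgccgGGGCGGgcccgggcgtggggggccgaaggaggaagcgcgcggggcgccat
BCL2L1: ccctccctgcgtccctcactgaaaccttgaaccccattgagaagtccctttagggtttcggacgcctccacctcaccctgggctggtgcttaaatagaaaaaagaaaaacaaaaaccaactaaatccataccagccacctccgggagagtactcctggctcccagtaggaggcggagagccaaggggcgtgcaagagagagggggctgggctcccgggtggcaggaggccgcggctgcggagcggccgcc
The BID window held 4 GC boxes and had a GC content of 72.0%, and the BCL2L1 window held 0 and had 60.4%. The C/EBP core TTGCNNAA, searched on both strands, was in neither, nor in any window of the 7 members matched in the promoter table (BCL2, BCL2L1, BCL2A1, BAX, BAK1, BID and BCL2L11). BID and BCL2L1 have other annotated starts, whose windows are counted there but not shown. The C/EBP core occurs in 9.05% of all 34788 windows of this length, and GGGCGG occurs in 42.6%. A CCAAT box on either strand, present in 32.0% of all windows, was found for 3 of the 7 members, BAX, BAK1 and BCL2L11.

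Among the survival members, MCL1, the short-lived guardian of many tumour cells, was the most abundant. WT libraries 1 and 2 had 39.0 and 45.2 FPKM, against 62.5 and 37.8 FPKM for C/EBPβ enh-/- libraries 1 and 2. The C/EBPβ enh-/- libraries lay on either side of both WT libraries, and the log2 fold change on the log2(FPKM + 1) scale was 0.21 (95% interval -0.47 to 0.89, adjusted p = 0.721 from limma). Without C/EBPβ enh-/- library 1 it was -0.15, so with the values as deposited the direction rests on that library. With libraries rescaled without their 5 highest genes it was 0.40, and both C/EBPβ enh-/- libraries were then above both WT libraries. Centring libraries on their median gave 0.38. Here and throughout, fewer cells that express a gene and less of its RNA per cell cannot be told apart. MCL1 held 58.5% and 65.7% of the summed FPKM of the survival members in WT libraries, and 76.1% and 62.0% in C/EBPβ enh-/- libraries.

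BCL2, the founding member of the family, had 11.8 and 7.23 FPKM in WT libraries and 9.08 and 11.5 in C/EBPβ enh-/- libraries. The genotypes overlapped and the WT libraries were the further apart, 1.63-fold against 1.27-fold. The log2 fold change was 0.13 (95% interval -0.54 to 0.80, adjusted p = 0.833, limma), and it was -0.19 without WT library 2 and -0.03 without C/EBPβ enh-/- library 2. With libraries rescaled without their 5 highest genes it was 0.31, and with libraries centred on their median it was 0.30.

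BCL2L1 encodes BCL-XL, a survival protein of the mitochondrial outer membrane. It had 9.88 and 10.9 FPKM in WT libraries, against 6.39 and 5.70 with the enhancer deleted, and the genotypes did not overlap. The mean of 10.4 ± 0.716 FPKM (SD, n = 2) in WT cells compared with 6.05 ± 0.487 (SD, n = 2) in the C/EBPβ enh-/- cells, and the ratio was 0.582. Libraries of a genotype differed by 1.10-fold in WT and 1.12-fold in C/EBPβ enh-/- cells, less than the genotypes did. The log2 fold change was -0.69 (standard error 0.22, 95% interval -1.21 to -0.18), with an unadjusted p of 0.0153 and an adjusted p of 0.146 (limma with Benjamini-Hochberg adjustment over all tested genes), so it did not pass the threshold of 0.05. It was between -0.76 and -0.62 whichever library was left out.

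BCL2L2 (BCL-W) had 5.91 and 5.45 FPKM in WT libraries and 4.18 and 5.93 in C/EBPβ enh-/- libraries, with overlapping genotypes and a log2 fold change of -0.16 (95% interval -0.74 to 0.43, adjusted p = 0.756, limma). That sign turned to 0.02 when libraries were centred on their median and to 0.01 when they were rescaled without their 5 highest genes. It was also 0.05 without C/EBPβ enh-/- library 1 and -0.37 without library 2, so the direction rests on single libraries. Its exons are shared with the read-through gene BCL2L2-PABPN1, listed at 5.08, 6.28, 6.29 and 6.80 FPKM in the same order of libraries, so that the division of fragments between the 2 genes is uncertain. They also overlap the opposite-strand gene PPP1R3E, listed at 2.78 to 3.53 FPKM. BCL2A1, a member typical of blood cells, was listed at 0 in both WT libraries and in C/EBPβ enh-/- library 1, and at 0.00182 in C/EBPβ enh-/- library 2, and was not tested.

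**Figure D1:**
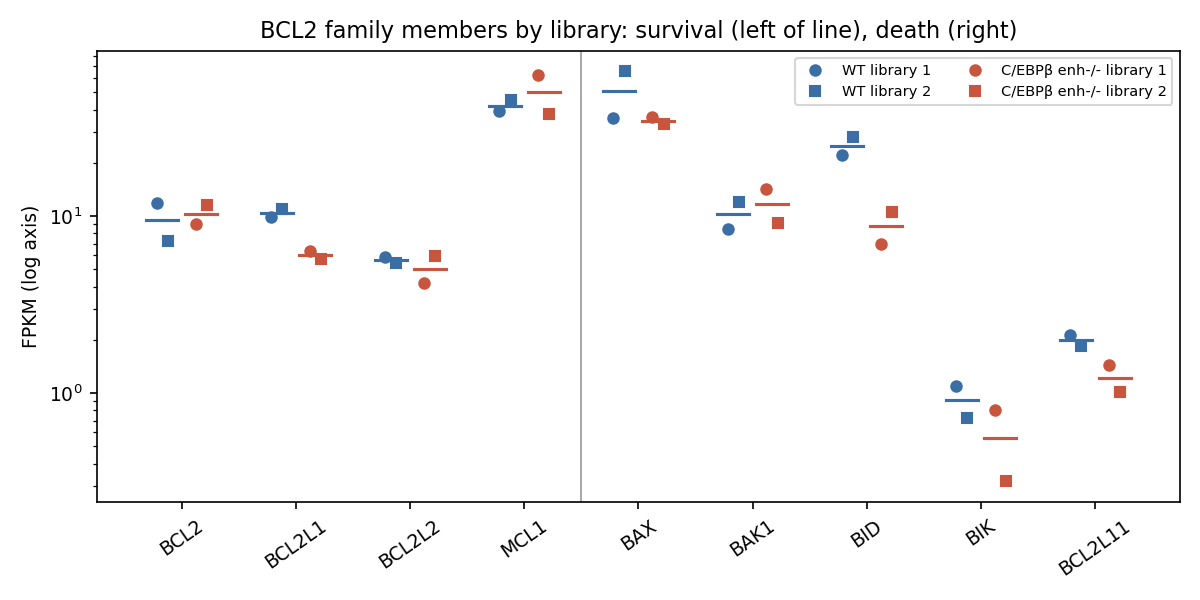
FPKM (log axis) of 9 BCL2 family members in each of the 2 WT (blue) and 2 C/EBPβ enh-/- (red) libraries, with library 1 as circles, library 2 as squares and the genotype mean as a bar; BCL2A1, at or near 0, is left out. The genotypes separate for BCL2L1, BID and BCL2L11, and overlap for the other 6.

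Of the effectors, BAX was the more abundant death gene and BAK1 the scarcer. BAX had 35.8 and 65.8 FPKM in WT libraries and 36.1 and 33.0 in C/EBPβ enh-/- libraries. WT library 2 alone stood high, while WT library 1 lay between the C/EBPβ enh-/- libraries. The log2 fold change was -0.48 (95% interval -1.22 to 0.26, adjusted p = 0.420, limma), and it was -0.05 without WT library 2 and -0.91 without WT library 1. Rescaling libraries without their 5 highest genes gave -0.29, and centring them on their median gave -0.31. BAK1 had 8.47 and 12.0 FPKM in WT libraries and 14.2 and 9.16 in C/EBPβ enh-/- libraries. The genotypes overlapped, with a log2 fold change of 0.16 (95% interval -0.53 to 0.85, adjusted p = 0.787, limma) that turned to -0.07 without WT library 1 and to -0.13 without C/EBPβ enh-/- library 1. The ratio of BAX to BAK1 was 4.23 and 5.46 in WT libraries and 2.54 and 3.60 in C/EBPβ enh-/- libraries.

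BID, the BH3-only protein that links caspase-8 to mitochondria, showed the largest difference of the family. WT libraries 1 and 2 had 22.0 and 27.8 FPKM, against 6.98 and 10.6 FPKM for C/EBPβ enh-/- libraries 1 and 2. The genotypes did not overlap, and the higher C/EBPβ enh-/- value was less than the lower WT value by more than the libraries of either genotype differed. The mean of 24.9 ± 4.12 FPKM (SD, n = 2) in WT cells compared with 8.78 ± 2.55 (SD, n = 2) in the C/EBPβ enh-/- cells, a 2.84-fold lower level. The log2 fold change was -1.42 (standard error 0.27, 95% interval -2.06 to -0.79, unadjusted p = 0.0012), and 2.23% of tested genes had a lower one. The adjusted p of 0.0588 (limma) lay just above the threshold of 0.05. With tests on genes of a mean FPKM of at least 5 only, the adjusted p was 0.0494, and in fits chosen after seeing the data it was 0.0282 among protein-coding genes and 0.0386 without genes listed at 0 in any library, while the fold change was the same in all 3. Over all alternatives it ranged from 0.0282 to 0.579, the latter without a filter on low values. Leaving out a library gave log2 fold changes from -1.69 to -1.15, without C/EBPβ enh-/- library 2 and library 1 respectively.

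BCL2L11 (BIM), the BH3-only protein that binds all survival members, was low, with 2.13 and 1.84 FPKM in WT libraries and 1.44 and 1.01 in C/EBPβ enh-/- libraries. The genotypes did not overlap. The mean of 1.98 ± 0.207 FPKM (SD, n = 2) in WT cells compared with 1.22 ± 0.302 (SD, n = 2) in the C/EBPβ enh-/- cells, but the log2 fold change of -0.43 (95% interval -1.07 to 0.21, adjusted p = 0.407, limma) did not pass the threshold. Adding 1 to values of this size understates the difference, and with a pseudocount of 0.1 the log2 fold change was -0.67 (adjusted p = 0.421, limma, with a range of 0.341 to 0.821 over alternatives). It was smaller when libraries were centred on their median (-0.26), when they were rescaled without their 5 highest genes (-0.31) and without C/EBPβ enh-/- library 2 (-0.29). Exons of BCL2L11 overlap the opposite-strand transcript MIR4435-2HG, listed at 38.1 and 45.8 FPKM in WT and at 25.0 and 16.7 in C/EBPβ enh-/- libraries, and whether counting used the strand is not given in the sources used here. BIK, a BH3-only protein of the endoplasmic reticulum, had 1.10 and 0.726 FPKM in WT libraries and 0.800 and 0.318 in C/EBPβ enh-/- libraries. Its mean over the 4 libraries was below 1, so it was not tested, and these values rest on only about 13 to 37 fragments per library.

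**Figure D2:**
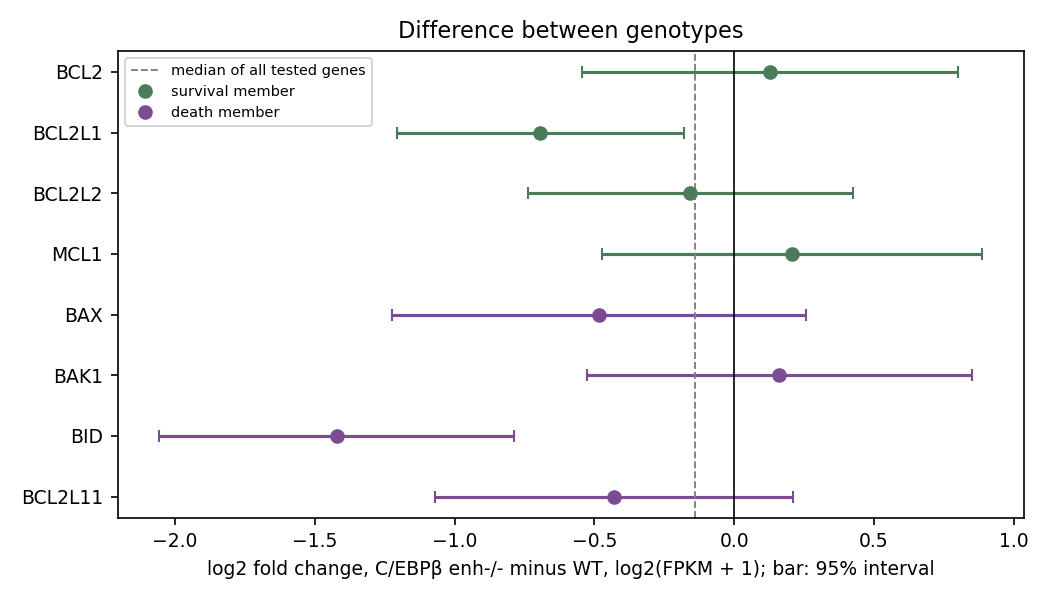
Log2 fold change (C/EBPβ enh-/- minus WT, log2(FPKM + 1)) of the 8 tested members with the 95% interval from limma, survival members in green and death members in purple. The dashed line is the median of all tested genes, -0.14, and the intervals of BCL2L1 and BID alone lie wholly below 0.

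In all, 8 of the 10 members had a mean FPKM of at least 1 and were tested, and 0 passed the adjusted threshold (limma), while 2 of the 8, BID and BCL2L1, had an unadjusted p under 0.05. Among all 12491 tested genes, 1.46% passed the adjusted threshold, 1.21% with lower and 0.248% with higher values in C/EBPβ enh-/- cells, and 20.8% had an unadjusted p under 0.05. The C/EBPβ enh-/- libraries were both lower than both WT libraries in 1 of 4 tested survival members (BCL2L1) and in 2 of 4 tested death members (BID and BCL2L11), against 37.5% of all tested genes. They were both higher in 0 of the 8, against 15.1% of all tested genes. These shares are near the background, or rest on too few genes to be set apart from it. The background itself depended on the scaling, since 24.8% of tested genes were lower and 28.1% higher in this sense after rescaling without the 5 highest genes, and 25.2% and 28.1% after centring on the median. BID, BCL2L1 and BCL2L11 were separated downward under each of these scalings, and MCL1 was separated upward under the first. The median log2 fold change was -0.01 over the tested survival members (0.16 when centred or rescaled without the 5 highest genes, and -0.20 without WT library 2 or without C/EBPβ enh-/- library 2) and -0.46 over the tested death members (-0.28 when centred or without WT library 2, and -0.63 without WT library 1), against -0.14 over all tested genes (quartiles -0.47 and 0.16). The difference between the survival and the death members was not tested, and it was small without WT library 2 (-0.20 against -0.28). The shift of all tested genes depended on the scaling, being 0.03 after rescaling without the 5 highest genes. Relative to the median of -0.14, BID stood at -1.28, BCL2L1 at -0.55 and MCL1 at 0.35. With 2 libraries per genotype, 0.333 is the smallest two-sided p of an exact permutation test, so no member can be called by one.

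The order of mean levels differed between genotypes among the 6 most abundant members, and was the same for the other 4. In WT cells the means ran from BAX (50.8 FPKM) and MCL1 (42.1) to BID (24.9), BCL2L1 (10.4), BAK1 (10.3), BCL2 (9.52), BCL2L2 (5.68), BCL2L11 (1.98), BIK (0.912) and BCL2A1. The libraries of BAX and MCL1 overlapped, and those of BCL2L1, BAK1 and BCL2 overlapped one another. In C/EBPβ enh-/- cells MCL1 (50.2) came before BAX (34.5), followed by BAK1 (11.7), BCL2 (10.3), BID (8.78), BCL2L1 (6.05), BCL2L2 (5.05), BCL2L11 (1.22), BIK (0.559) and BCL2A1. There the libraries of BAK1, BCL2 and BID overlapped one another, and so did those of BCL2L1 and BCL2L2. BID was thus the third most abundant member in WT cells, apart from its neighbours in the order. It was not distinct from BAK1 or BCL2 in C/EBPβ enh-/- cells. BCL2L1 overlapped BAK1 and BCL2 in WT cells and lay below BAK1, BCL2 and BID in C/EBPβ enh-/- cells, where MCL1 was also apart from BAX.

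Summed over the 5 genes, the survival members had 66.6 and 68.8 FPKM in WT libraries and 82.2 and 60.9 in C/EBPβ enh-/- libraries. The death members had 69.6 and 108 FPKM in WT libraries and 59.6 and 54.0 in C/EBPβ enh-/- libraries. The ratio of the survival to the death sum was 0.957 and 0.636 in WT libraries and 1.38 and 1.13 in C/EBPβ enh-/- libraries, so that both C/EBPβ enh-/- libraries were above 1 and both WT libraries below. This ratio does not depend on how libraries are scaled to each other, and it is a description of these 4 libraries with no test. Without MCL1 and BAX, which dominate the sums, it was 0.819 and 0.556 in WT libraries and 0.838 and 1.10 in C/EBPβ enh-/- libraries, with little distance between WT library 1 and C/EBPβ enh-/- library 1. BID made up 31.6% and 25.7% of the death sum in WT libraries and 11.7% and 19.6% in C/EBPβ enh-/- libraries. The ratio of BCL2 to BCL2L1 was 1.19 and 0.664 in WT libraries and 1.42 and 2.02 in C/EBPβ enh-/- libraries.

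**Figure D3:**
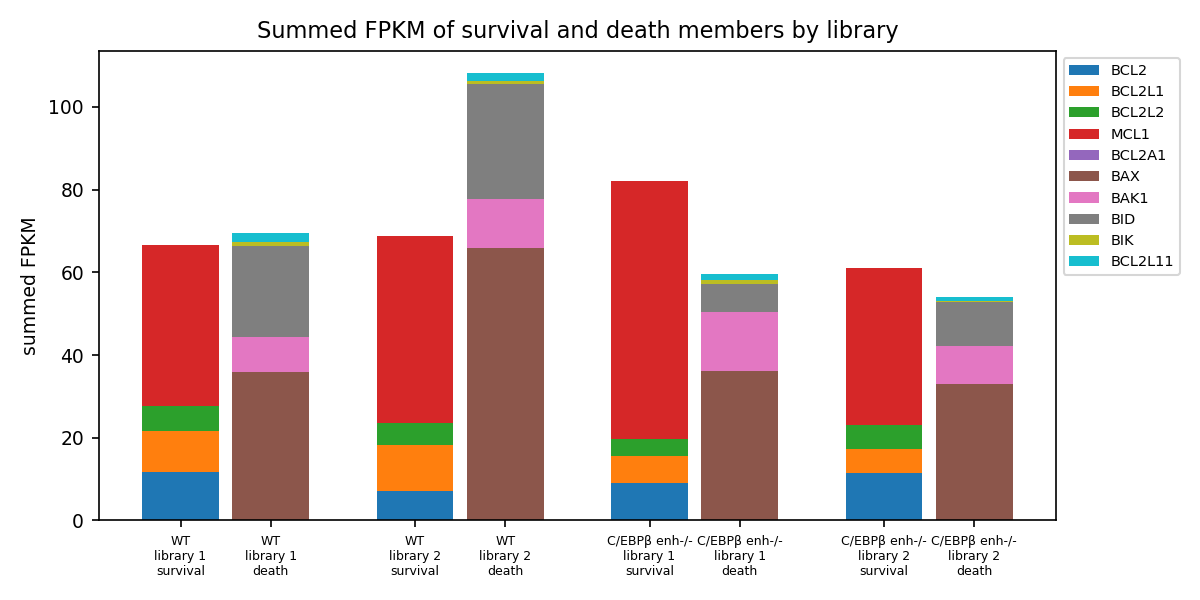
Summed FPKM of the 5 survival and the 5 death members in each library, stacked by gene. The death sum is above the survival sum in both WT libraries and below it in both C/EBPβ enh-/- libraries, with MCL1 and BAX as the largest parts. This order holds for the listed members only, and other expressed BH3-only genes such as BAD and PMAIP1 are not in the sums.

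Members were also set against the genes around them, since neighbours that differ together would not be particular to the family. BID (ENSG00000015475.14) occupies chromosome 22 from 18216904 to 18257536 (GRCh37, minus strand), and its canonical transcript has 6 exons. Within 1 Mb of it, 15 other genes were tested, of which 10 had both C/EBPβ enh-/- values below both WT values and 1 had both above. Of the other tested genes of chromosome 22, 57.6% were lower in this way, against 37.5% of all tested genes, so the count is near the share of the chromosome. The median log2 fold change of the 15 neighbours was -0.72, and that of the 295 other tested genes of chromosome 22 was -0.41, against -0.14 over all tested genes. The BID value of -1.42 was below that of each of the 15 neighbours. BCL2L13, a mitochondrial outer membrane protein of the same family, ends 3283 bp from BID (chromosome 22, 18111621 to 18213621, plus strand) and had 37.4 and 25.5 FPKM in WT libraries against 13.6 and 14.6 in C/EBPβ enh-/- libraries. For BCL2L13 the log2 fold change was -1.08 (95% interval -1.68 to -0.48, adjusted p = 0.0878, limma). The mitochondrial citrate carrier gene SLC25A1, 905558 bp from BID, had 100 and 102 FPKM in WT libraries and 38.8 and 46.6 in C/EBPβ enh-/- libraries (log2 fold change -1.23, adjusted p = 0.0525, limma). In contrast, ATP6V1E1, a proton pump subunit gene that lies 105389 bp from BID, had 71.1 and 83.5 FPKM in WT libraries against 92.7 and 56.3 (log2 fold change -0.09). SLC25A1 and ATP6V1E1 were chosen after their values were seen. Gene copy number was not measured in these libraries, and its part in the difference at BID was not tested.

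BCL2L1 (ENSG00000171552.8, chromosome 20 from 30252255 to 30311792, minus strand) had another neighbourhood. Of 14 other tested genes within 1 Mb, 2 had both C/EBPβ enh-/- values below both WT values and 1 had both above, and their median log2 fold change was 0.03. The other 346 tested genes of chromosome 20, which also holds CEBPB, had a median of -0.05, and 26.9% of them were lower in both C/EBPβ enh-/- libraries than in both WT libraries. TPX2, a spindle assembly gene 15282 bp away and named as the nearest, had 45.2 and 45.4 FPKM in WT and 75.3 and 40.2 in C/EBPβ enh-/- libraries (log2 fold change 0.28). BCL2L11 (ENSG00000153094.17, chromosome 2 from 111876955 to 111926021, plus strand) had 7 tested neighbours, of which 6 had both C/EBPβ enh-/- values below both WT values, with a median of -0.76. The other 794 genes of chromosome 2 had a median of -0.44, and 60.6% of them were lower in this way. BIK shares chromosome 22 with BID (43506756 to 43525718, plus strand), and the median of its 20 tested neighbours was -0.40. The median of neighbours was -0.29 around MCL1 (chromosome 1, 150533371 to 150552214) and -0.20 around BCL2L2 (chromosome 14, 23767999 to 23780960). It was 0.14 around BCL2 (chromosome 18, 60790579 to 60987361), 0.15 around BCL2A1 (chromosome 15, 80253234 to 80263538), 0.01 around BAX (chromosome 19, 49458072 to 49465055) and 0.02 around BAK1 (chromosome 6, 33540324 to 33548070).

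**Figure D4:**
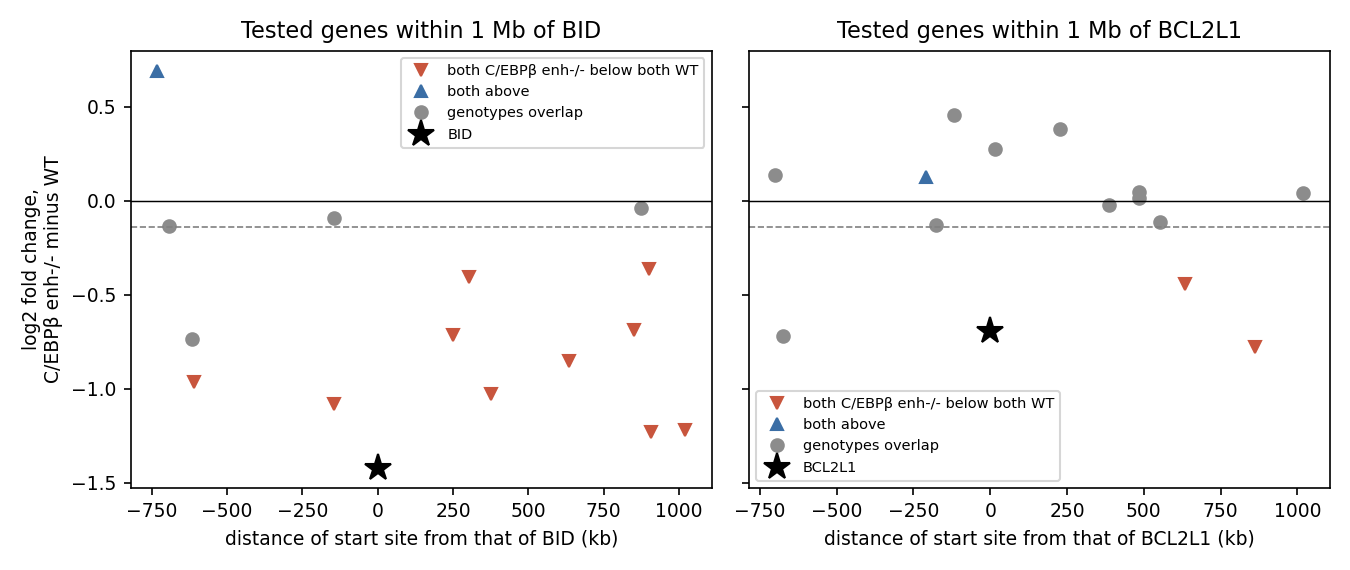
Log2 fold change (C/EBPβ enh-/- minus WT) of tested genes within 1 Mb of BID (left) and BCL2L1 (right) against the distance of their start sites in kb, with the member as a star and the median of all tested genes as a dashed line. Most neighbours of BID lie below 0, with 10 of 15 separated downward, whereas those of BCL2L1 scatter around 0. The chromosomes differ likewise, with 57.6% of the other genes of chromosome 22 and 26.9% of those of chromosome 20 separated downward.

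The remaining family genes and the steps before and after the mitochondrion were described from 7 further lists, which hold 60 genes. Of these, 50 were tested, 0 passed the adjusted threshold (limma) and 10 had an unadjusted p under 0.05, with 17 having both C/EBPβ enh-/- values below both WT values and 5 having both above. These shares are at or below those of all tested genes, of which 20.8% had such a p, 37.5% were lower and 15.1% higher in both libraries. The median log2 fold change over the 50 was -0.06. Among 13 other BCL2 family genes, 8 were tested, of which 4 were lower in both C/EBPβ enh-/- libraries than in both WT libraries and 0 higher, with a median of -0.29. Besides BCL2L13 these included BAD, a BH3-only gene controlled by survival kinases, with 31.0 and 33.1 FPKM in WT libraries against 17.7 and 24.3 (log2 fold change -0.60, standard error 0.24, adjusted p = 0.218, limma), and the fold change was -0.38 without C/EBPβ enh-/- library 1. Of the 4 BH3-only genes BBC3, PMAIP1, BMF and HRK, BMF and HRK had a mean below 1 and were not tested. BBC3 had 3.39 and 6.03 FPKM in WT libraries against 6.4 and 4.44 (log2 fold change 0.19, adjusted p = 0.762, limma). PMAIP1 had 21.0 and 11.3 against 33.1 and 12.6 (log2 fold change 0.39, adjusted p = 0.679, limma). Both thus had a positive fold change, unlike BAD, with overlapping genotypes. BMF had 0.921 and 0.826 FPKM in WT libraries against 1.12 and 1.08, with no overlap.

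Upstream of BID, 9 of 12 genes of the death receptor pathway were tested, of which 3 were separated downward and 1 upward, with a median of -0.06. CASP8, the protease that cleaves BID, had 18.3 and 15.4 FPKM in WT libraries and 9.27 and 6.57 in C/EBPβ enh-/- libraries, a ratio of means of 0.470. Its log2 fold change was -1.01 (standard error 0.25, 95% interval -1.60 to -0.42, adjusted p = 0.0941, limma). CFLAR, the caspase-8-like inhibitor, had 10.8 and 10.2 FPKM against 9.75 and 6.01 (log2 fold change -0.40, adjusted p = 0.432, limma). RIPK1, a kinase of the TNF receptor complex, had 3.10 and 3.58 FPKM against 3.76 and 4.44 (log2 fold change 0.23, adjusted p = 0.617, limma). The log2 fold change of CFLAR was -0.095 without C/EBPβ enh-/- library 2 and -0.71 without library 1, and that of RIPK1 was 0.14 without C/EBPβ enh-/- library 2 and 0.15 without WT library 1.

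Downstream, all 6 genes of the apoptosome and the executioner caspases were tested, of which CYCS alone was separated, with 95.8 and 113 FPKM in WT libraries against 69.8 and 67.7. CYCS encodes cytochrome c, and it differed by -0.59 on the log2 scale (standard error 0.21, adjusted p = 0.182, limma), while the list's median was 0.16. Among the inhibitor of apoptosis proteins and their antagonists, 7 of 8 genes were tested, 3 being separated downward and 1 upward. BIRC3 (cIAP2), a target of NF-κB that acts on ubiquitin signalling at TNF receptors, had 5.88 and 15.2 FPKM in WT libraries and 2.39 and 1.09 in C/EBPβ enh-/- libraries. This was the lowest log2 fold change of all lists, -1.99 (standard error 0.44, adjusted p = 0.0816, limma), although the WT libraries were 2.58-fold apart. In fits chosen after seeing the data its adjusted p was 0.0356 among protein-coding genes and 0.0499 without genes listed at 0 (limma), within a range of 0.0356 to 0.803 over all alternatives. HTRA2, a protease released from mitochondria, had 22.8 and 27.4 FPKM against 15.5 and 18.8 (log2 fold change -0.52, adjusted p = 0.254, limma). BIRC6, a giant ubiquitin ligase, had 27.8 and 27.0 against 29.8 and 29.4 (log2 fold change 0.11, adjusted p = 0.806, limma).

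Of 8 outer membrane partners and mitochondrial shaping genes, all were tested, 3 being separated downward and 2 upward, with a median of -0.11. VDAC2, the channel that brings BAK1 to mitochondria, had 129 and 124 FPKM in WT libraries against 90.1 and 79.7 (log2 fold change -0.58, adjusted p = 0.183, limma). OPA1, which shapes the inner membrane folds, had 62.5 and 58.7 against 28.3 and 41.3 (log2 fold change -0.81, adjusted p = 0.145, limma). VDAC3 had 53.9 and 66.4 against 84.4 and 67.6 (log2 fold change 0.33, adjusted p = 0.461, limma), and the fission gene DNM1L had 30.8 and 29.3 against 32.7 and 31.9 (log2 fold change 0.10, adjusted p = 0.818, limma). The log2 fold change of VDAC3 was 0.18 without WT library 1 and 0.17 without C/EBPβ enh-/- library 1, and that of DNM1L was 0.065 without WT library 2.

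Of 5 genes that set the turnover of MCL1 protein, all were tested, 1 being separated downward and 1 upward, with a median of -0.06. The ubiquitin ligase HUWE1 had 56.6 and 55.2 FPKM against 28.6 and 47.3 (log2 fold change -0.59, adjusted p = 0.284, limma), and the ligase subunit BTRC had 6.11 and 8.11 against 11.1 and 10.8 (log2 fold change 0.57, adjusted p = 0.226, limma). The HUWE1 value was -0.24 without C/EBPβ enh-/- library 1 and -0.95 without library 2. Of 8 transcription factors known to act on members, 7 were tested, 2 being separated downward and 0 upward, with a median of -0.30. STAT3, an activator of BCL2L1 and MCL1, had 30.0 and 36.5 FPKM against 25.8 and 14.9 (log2 fold change -0.72, adjusted p = 0.232, limma), and the fold change was -0.35 without C/EBPβ enh-/- library 2 and -1.10 without library 1. FOXO1, an activator of BCL2L11, had 3.40 and 2.31 against 1.57 and 1.17 (log2 fold change -0.69, adjusted p = 0.225, limma).

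**Figure D5:**
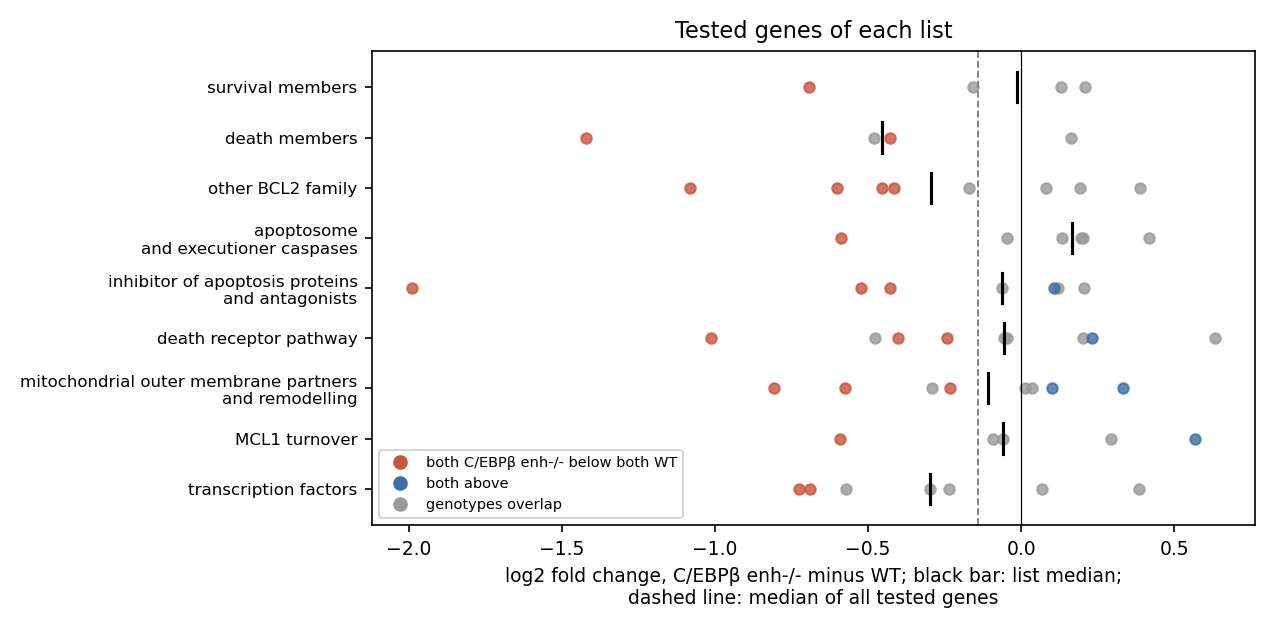
Log2 fold change (C/EBPβ enh-/- minus WT) of each tested gene by list, red where both C/EBPβ enh-/- values lie below both WT values, blue where both lie above and grey where the genotypes overlap. Black bars are list medians, from -0.46 for the death members to 0.16 for the apoptosome and executioner caspases, and the dashed line is the median of all tested genes, -0.14.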

How the data were processed

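The 4 libraries, 2 per genotype, were grouped by the genotype in their labels. The authors deposited 1 FPKM value per gene and library, without replicate pooling. The submitters' processing notes name hg19, TopHat2 2.0.13, Cufflinks and edgeR, with no role given. Whether libraries were scaled to each other, and whether strand was used, is not given in the sources used here. Of 57815 entries, 57768 remained without the pseudoautosomal copies on chromosome Y, and 55535 matched a symbol. Positions are from GENCODE release 44 lifted to GRCh37. Relative to library size, a few very abundant genes can lower all others.

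The genotypes were compared on log2(FPKM + 1) for the 12491 genes whose mean FPKM reached 1, by limma 3.58.1 (R 4.3.3, empirical Bayes with an intensity trend). Tests were two-sided, without a replicate block, with Benjamini-Hochberg adjustment over all tested genes and a threshold of 0.05. With 2 libraries per genotype, a gene that misses the threshold is not shown to be unchanged. Depth was read from values under an FPKM of 0.3 of genes with a single transcript over 1000 nt, shortened by 170 nt. Counts were not used here, and with n = 2 per genotype the number of libraries limits the precision. The labels give both genotypes the numbers 1 and 2. The alternatives tried were a fit with no trend, 0.1 as the pseudocount, all genes or only those with a mean FPKM of 5 or more, 2 rescalings, centring, the replicate block and leaving out each library, and 2 further gene filters were added after seeing the data. Named genes are the 10 members, CEBPB and, per list, genes past the threshold and the 2 largest differences in each direction among separated genes. The values of the BH3-only genes BBC3, PMAIP1 and BMF were added after they were seen. The members and lists were chosen with earlier results of these data known. Figures were made with Python 3.11.15 and matplotlib 3.10.9.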

Additional observations from a re-analysis of the deposited data

How the results depend on the processing

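Against 151 lower and 31 higher genes past the threshold (limma), there were 61 lower with the same total per library, 63 lower with the same total without the 5 highest genes, 68 lower when centred on the median and 93 lower with the replicate block, and 20 higher with a mean FPKM of at least 5. Under those 3 scalings 23, 31 and 31 genes were higher. At an unadjusted p under 0.05 (limma), 2114 lower and 482 higher genes became 1235 and 1168 without the 5 highest genes in the total, and 1263 and 1142 when centred, so the excess of lower genes depended on the scaling. Without the filter 0 genes passed in either direction, while 2657 lower and 1107 higher genes had an unadjusted p under 0.05 (limma). Of 2 gene filters added after the data were seen, leaving out genes with a 0 in any library gave 324 lower and 47 higher, and keeping protein-coding genes gave 457 lower and 60 higher. Leaving out 1 library, which leaves a lone library assumed to vary like the others, gave 9 to 22 lower and 3 to 20 higher genes. The cause was not tested.

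The number of members past the threshold was 1 (BID, log2 fold change -1.42) instead of 0 with a mean FPKM of at least 5, without genes listed at 0 and among protein-coding genes, and 0 to 0 when a library was left out. The number of genes of the other lists past the threshold was 1 (BIRC3) instead of 0 under the 2 added gene filters and 0 in the others. The median of the survival members, -0.01, was 0.162 with the same total without the 5 highest genes and 0.160 when centred, and from -0.198 to -0.003 without a library. The median of all tested genes, -0.14, was 0.032 and 0.034 under those scalings, 0.0 without the filter, and from -0.194 to -0.104 without a library. BCL2L2 turned to 0.013 and 0.017 under the same scalings. Across fits without a library, the log2 fold change ranged from -0.189 to 0.447 for BCL2, from -0.368 to 0.053 for BCL2L2, from -0.149 to 0.563 for MCL1 and from -0.130 to 0.455 for BAK1. In 100 of 111 alternative fits of the 8 tested members, the direction and the side of the threshold were those reported. The direction was reversed in 8 fits, and the side of the threshold differed in 3. Fits that change only the filter, the trend or the block leave the fold change as it was, so in those the direction could not turn. The difference in the log2 ratio of summed survival to death FPKM, 0.676, was 0.508 without MCL1 and BAX and 0.381 to 0.971 without a library.

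With the replicate number as a block, 0 members passed the threshold and no call of a member changed, the adjusted p being 0.0603 for BID and 0.188 for BCL2L1 (limma). Libraries with the same number deviated from their genotype means with a correlation of 0.00945 (Pearson, over genes rather than independent replicates). No shared deviation was thus seen over all tested genes together. This single value cannot tell whether some of the genes share an effect between libraries of the same number. Depth limits values near an FPKM of 1, where BIK rests on about 13 to 37 fragments per library.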
